A study of Rattus norvegicus with 24 samples.

Results

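Gadd45a, Runx1, Ncam1 and Prkar1a are 4 genes, outside the acetylcholine receptor subunits, whose messages are known to respond to the loss of a muscle's nerve supply or to lie under the nerve contact. All probe sets that the platform annotation gives 1 of these 4 symbols were taken, which made 8 probe sets of 8740 that are not controls, for 4 of 4736 named genes. The genes were taken to have been picked because their level in a limb muscle differed between 30 and 6 months, or between 2 muscles. Those differences are therefore given as descriptions with no test. Tests are given for changes with age within the other muscle, whose arrays also entered the comparison of muscles. All 8 probe sets passed the filter on dim signals that left 5741 probe sets for testing.

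The study measured messages in extraocular muscles (EOM), which turn the eyeball, and in the extensor digitorum longus (EDL), a fast muscle of the lower hindlimb that extends the toes. Both came from rats (Rattus norvegicus) aged 6, 18 and 30 months, and the groups were EOM at 6, 18 and 30 months and EDL at 6, 18 and 30 months. Each group had 4 Affymetrix Rat Genome U34 arrays, 24 in all, with RNA of 4 animals pooled for every array. A probe set is a group of short probes that gives 1 signal, in arbitrary units, for a transcript. No treatment, allele or nerve injury is named in the labels, and strain and sex are not given in the sources used here. Nor do they say if 1 set of animals supplied both muscles. In such whole-muscle samples, fewer cells of a type and less RNA per cell cannot be told apart.

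Motor nerves hold muscle fibres in a state in which many synaptic genes are active only beneath the nerve contact. When the nerve is lost, fibres turn these genes on along their length, together with the transcription factor myogenin and, in mice, Gadd45a and Runx1. Ncam1, a surface adhesion molecule, is a classic marker of denervated and regenerating fibres, and Prkar1a encodes the regulatory subunit of protein kinase A that is concentrated at the neuromuscular junction.

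Sequences just before the annotated starts of 3 of the genes are shown because Gadd45a and Runx1 both had their highest group mean in EDL at 30 months, though only Gadd45a was also high in EOM, and because myogenic factors such as myogenin bind E-boxes. They come from RefSeq, assembly GRCr8, and run from 250 bases before the start to 50 bases after it. Capitals mark every match to the E-box CANNTG, which reads the same on both strands.

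Gadd45a: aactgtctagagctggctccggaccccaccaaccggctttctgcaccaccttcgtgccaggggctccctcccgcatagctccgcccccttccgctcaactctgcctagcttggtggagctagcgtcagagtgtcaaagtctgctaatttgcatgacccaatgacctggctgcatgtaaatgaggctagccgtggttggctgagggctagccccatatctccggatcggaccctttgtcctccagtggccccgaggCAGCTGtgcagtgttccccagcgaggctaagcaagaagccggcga
Runx1: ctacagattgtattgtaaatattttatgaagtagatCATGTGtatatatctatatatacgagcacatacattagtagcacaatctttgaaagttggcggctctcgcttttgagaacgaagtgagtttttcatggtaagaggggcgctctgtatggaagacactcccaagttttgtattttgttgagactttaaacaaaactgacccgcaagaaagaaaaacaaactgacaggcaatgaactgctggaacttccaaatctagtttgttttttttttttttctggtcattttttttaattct
Prkar1a: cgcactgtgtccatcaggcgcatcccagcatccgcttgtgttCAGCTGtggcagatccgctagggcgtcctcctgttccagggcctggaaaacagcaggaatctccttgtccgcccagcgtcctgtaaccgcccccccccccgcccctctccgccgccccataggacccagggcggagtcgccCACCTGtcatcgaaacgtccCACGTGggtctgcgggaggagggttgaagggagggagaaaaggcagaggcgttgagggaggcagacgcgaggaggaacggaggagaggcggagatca

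The Gadd45a window lies at chr4:97486750-97487049 on the minus strand, the Runx1 window at chr11:45421276-45421575 on the minus strand and the Prkar1a window at chr10:95120287-95120586 on the plus strand. The Runx1 window lies inside the annotated span of that gene. Gadd45a held 1 CANNTG, in the bases after the start, Runx1 held 1 and Prkar1a held 3. Of 33469 promoters of the same length, 72.1% held the motif. The form CAGCTG, contained in CANNTG, occurred once in Gadd45a and once in Prkar1a, and in 15.1% of all promoters. Searched on both strands, TGTGGT (a Runx site, in 17.3% of promoters), TGACGTCA (a cyclic AMP response element, in 1.83%) and TATAAA (in 14.2%) had no match in the 3 windows. G and C made up 60.3% of the Gadd45a window, 34.3% of the Runx1 window and 65.3% of the Prkar1a window, against a median of 51.7% over all promoters.

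Gadd45a (Entrez 25112, GRCr8 chr4:97484497-97486799) encodes a small nuclear protein of the growth arrest and DNA damage response. Of its 4 probe sets, L32591mRNA_at and L32591mRNA_g_at were designed from 1 sequence record and rc_AI070295_at and rc_AI070295_g_at from another. The brightest, L32591mRNA_g_at, read 1180.9, 1580.1, 1555.9 and 1279.1 units in EOM at 6 months, 1626, 1533, 1517.1 and 1557.1 at 18 months, and 1977.4, 2216.5, 1655.7 and 1540.3 at 30 months. On EDL arrays it read 215.5, 288.7, 467.8 and 253.6 at 6 months, 235.8, 433.4, 445.4 and 306.5 at 18 months, and 4510.8, 3165.4, 1671.5 and 2700.1 at 30 months. Every EOM array at each age thus lay above every EDL array at 6 and 18 months, while the 4 EDL arrays at 30 months lay above all arrays of both muscles at 6 and 18 months and overlapped only EOM at 30 months.

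In EDL this probe set averaged 3012 ± 1178 units at 30 months and 306.4 ± 111.7 at 6 months (SD, n = 4 each), a 9.67-fold difference (log2 3.27, SE 0.26). Between 18 and 6 months in EDL the log2 difference was 0.23 (SE 0.26), and the 4 readings at 18 months lay inside the range of those at 6 months. The highest pool at 30 months was 2.70-fold above the lowest, and within replicates 1 and 2 the log2 difference from 6 months was 3.92 against 2.63 within replicates 3 and 4. Replicate 1 of EDL at 30 months, which gave the highest Gadd45a signal, also resembled its group least over all probe sets. Its median Spearman correlation was 0.8692 against 0.9103 to 0.9342 on the other EDL arrays. Without it the log2 difference was 3.05.

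The other 3 Gadd45a probe sets were also higher in EDL at 30 months. L32591mRNA_at averaged 1909 ± 587.9 units at 30 months and 211 ± 96.16 at 6 months (SD, n = 4 each; log2 3.25, SE 0.47). For rc_AI070295_g_at the means were 706.6 ± 402.1 units at 30 months and 121.6 ± 72.18 at 6 months (log2 2.53, SE 0.50), and for rc_AI070295_at they were 312.7 ± 132.1 at 30 months and 74.8 ± 45.58 at 6 months (log2 2.10, SE 0.66). For the first of these 3 and for rc_AI070295_g_at all 16 pairs of a 30-month and a 6-month array had the older array higher. For rc_AI070295_at it was 15 of 16, because replicate 3 at 30 months read 115.9 units against 119.9 in replicate 3 at 6 months. The difference shrank with the signal of the probe set. The dimmest lay at the floor on 1 array of EDL at 6 months and 1 at 18 months. The floor raised that 6-month reading from 19.6 to 26.4 units, which lowered the fold. Over the alternatives, which include a lower floor, its log2 difference was at most 2.53, without replicate 3 at 30 months.

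**Figure D1:**
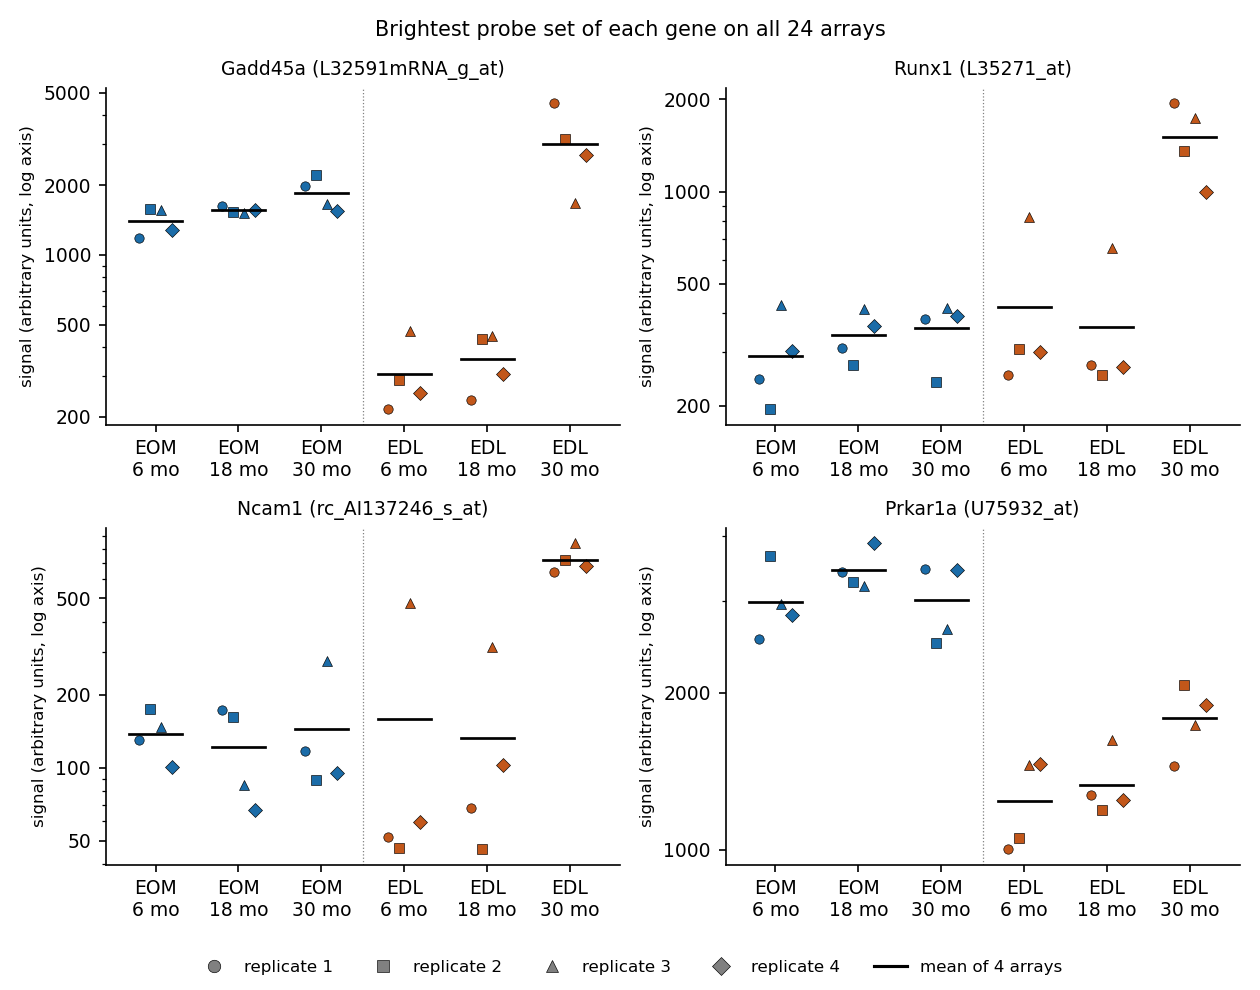
Signal of the brightest probe set of each gene on all 24 arrays, in arbitrary units on a log axis, by muscle and age in months (mo). Symbols give the replicate number and bars the mean of 4 arrays. Gadd45a, Runx1 and Ncam1 were highest in EDL at 30 months, where Gadd45a averaged 3012 units, and Prkar1a was higher on every EOM array than on any EDL array.

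Between the muscles, the direction for Gadd45a depended on age. L32591mRNA_g_at was 4.74-fold higher in EOM than in EDL at 6 months (log2 2.24, SE 0.26) and 4.53-fold higher at 18 months (2.18), but lower in EOM at 30 months (-0.63, SE 0.26). The difference between 30 and 6 months in EOM minus that in EDL was -2.88 on the log2 scale (SE 0.37). L32591mRNA_at gave 2.43, 1.73 and -0.59 at the 3 ages, and rc_AI070295_g_at gave 1.08, 0.99 and -0.80. For rc_AI070295_at the values were 0.23, 0.72 and -0.27 (SE 0.66 each), and the 18-month value was 0.07 without replicate 3 of EOM. All 4 probe sets placed EDL at 30 months first, EOM at 30 months next and EDL at 6 months last.

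Within EOM none of the 4 probe sets passed a test for age. L32591mRNA_g_at averaged 1399 ± 199.5 units at 6 months, 1558 ± 48.04 at 18 and 1847 ± 307.8 at 30 months (SD, n = 4). Its difference between 30 and 6 months was 0.40 on the log2 scale, with a 95% interval of -0.14 to 0.93 (limma adjusted p = 0.9996; exact two-sided permutation p = 0.0857, where 0.0286 is the smallest 4 against 4 arrays allow). The older array was higher in 14 of 16 pairs, and in 4 of the 4 pairs that share a replicate number. With those pairs kept the exact two-sided permutation p was 0.125, the smallest that 4 pairs allow, and limma with the replicate block gave an adjusted p of 0.9994. L32591mRNA_at and rc_AI070295_at also had 4 of 4 such pairs higher, and rc_AI070295_g_at had 3 of 4.

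The dimmest probe set showed the only unadjusted p under 0.05 of the 24 tests of the 8 probe sets in 3 EOM age comparisons, when no block was used. In EOM rc_AI070295_at read 100.6, 397.6, 390.9 and 189.7 units at 30 months and 73.4, 112.6, 33.7 and 125.9 at 6 months. The groups overlapped, and the log2 difference was 1.60 (SE 0.66, limma unadjusted p = 0.02398, adjusted p = 0.9996; exact permutation p = 0.0857). The brightest probe set of the gene showed 0.40 on the same arrays.

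**Figure D2:**
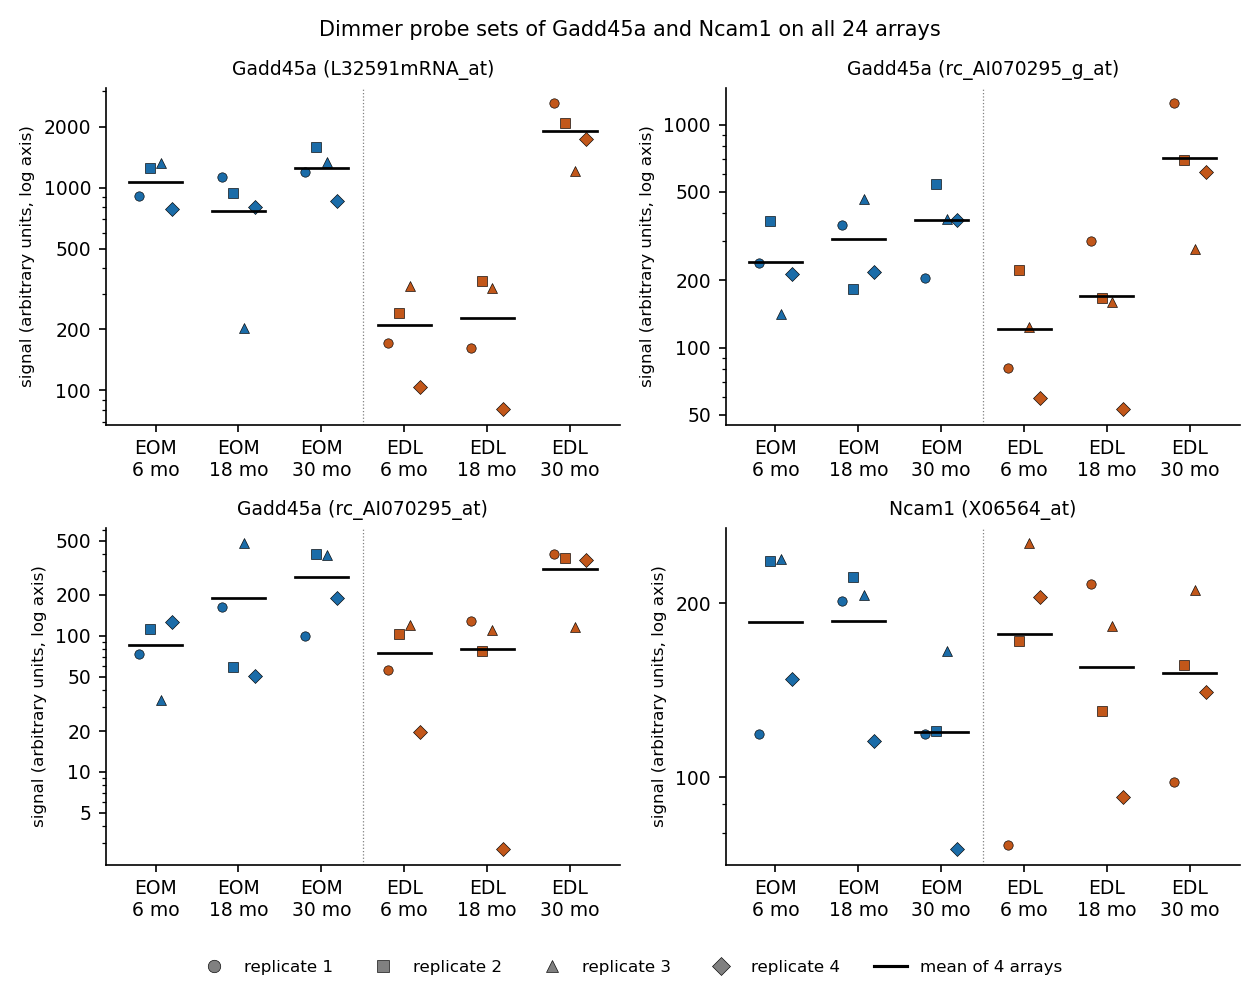
Signal of the other 3 Gadd45a probe sets and the second Ncam1 probe set on all 24 arrays, in arbitrary units on a log axis, by muscle and age in months (mo), with the mean of 4 arrays as a bar. The 3 Gadd45a probe sets were highest in EDL at 30 months, and X06564_at of Ncam1 overlapped between all groups that adjoin in level.

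Between pairs of the 4 Gadd45a probe sets, Pearson's r of log2 values ran from 0.828 to 0.962 over the 12 EDL arrays and from -0.281 to 0.898 over the 12 EOM arrays. L32591mRNA_g_at was brighter than L32591mRNA_at on 24 of 24 arrays, and this pair had r = 0.911 over the 24 arrays, 0.962 in EDL and 0.377 in EOM. The 2 stood furthest apart, at a ratio of 0.134, on replicate 3 of EOM at 18 months, where L32591mRNA_at read 203 units against 799.3 to 1129.9 on the other 3 and L32591mRNA_g_at read 1517.1. On that same array rc_AI070295_at gave its highest reading of the 24, 479.6 units. The pair rc_AI070295_at and rc_AI070295_g_at had r = 0.876 over 24 arrays, 0.956 in EDL and 0.898 in EOM. Across the sequence records, L32591mRNA_g_at and rc_AI070295_g_at had r = 0.772 over 24 arrays, 0.846 in EDL and 0.365 in EOM. These coefficients describe arrays of 6 groups, so differences between groups enter them.

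Runx1 (Entrez 50662, GRCr8 chr11:45325778-45560300), a DNA-binding factor of the Runt family, had 1 probe set, L35271_at. In EOM it read 244.1, 194.5, 425.6 and 300.6 units at 6 months, 308.9, 271.2, 414.4 and 363.5 at 18 months, and 384.4, 238.5, 418 and 392.9 at 30 months. In EDL the readings were 251.8, 306.1, 825.4 and 299 at 6 months, 272.5, 251.6, 652.7 and 266.9 at 18 months, and 1941.6, 1358.6, 1732.8 and 999.1 at 30 months. The 4 EDL arrays at 30 months stood above the other 20, and replicate 3 was the highest of the EDL pools at both younger ages. In EOM replicate 3 was also the highest at each age (425.6, 414.4 and 418 units), while in EDL at 30 months replicate 1 was.

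Runx1 averaged 1508 ± 416.3 units in EDL at 30 months and 420.6 ± 271 at 6 months (SD, n = 4 each), a 3.94-fold difference (log2 1.98, SE 0.35). Leaving out replicate 3 at 6 months gave a log2 difference of 2.36. Replicates 1 and 2 alone gave 2.55 and replicates 3 and 4 alone gave 1.41. Between 18 and 6 months in EDL it was -0.17 (SE 0.35).

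In EOM no age difference in Runx1 passed the test: the means were 291.2 ± 99.53, 339.5 ± 62.68 and 358.4 ± 81.23 units at 6, 18 and 30 months. The log2 difference between 30 and 6 months was 0.33, with a 95% interval of -0.39 to 1.04 (limma adjusted p = 0.9996). EOM and EDL lay close at 6 and 18 months (log2 of EOM over EDL -0.41 and 0.02, SE 0.35 each) and apart at 30 months (-2.06). The other groups, all below EDL at 30 months, overlapped from each to the next.

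Ncam1 (Entrez 24586, GRCr8 chr8:58762088-59062131) had 2 probe sets that did not give the same picture. The brighter, rc_AI137246_s_at, carries the suffix used for probes that can match more than 1 transcript. It read 129.9, 174.2, 146.8 and 100.7 units in EOM at 6 months, 172.3, 161.9, 84.4 and 66.7 at 18 months, and 117.6, 88.5, 274.4 and 94.7 at 30 months. On EDL arrays the readings were 51.9, 46.7, 476.5 and 59.8 at 6 months, 68, 46, 315.8 and 102.3 at 18 months, and 640, 718.4, 842.6 and 681.2 at 30 months. EDL at 30 months again stood above the other 20 arrays, and replicate 3 was again high at both younger ages in EDL.

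By this probe set Ncam1 averaged 720.5 ± 87.44 units in EDL at 30 months and 158.7 ± 211.9 at 6 months (SD, n = 4 each), with a log2 difference of 2.98 (SE 0.59), or 7.86-fold. That value depends on 1 pool: without replicate 3 at 6 months it was 3.77. Replicates 1 and 2 alone gave 3.78 and replicates 3 and 4 alone gave 2.17. Between 18 and 6 months it was 0.14 (SE 0.59). In EOM the log2 difference between 30 and 6 months was -0.08, with a 95% interval of -1.30 to 1.15 (limma adjusted p = 0.9996). The log2 of EOM over EDL was 0.57 at 6 months, 0.16 at 18 months and -2.48 at 30 months (SE 0.59 each), and the 6-month value was 1.36 without replicate 3 of EDL.

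The second probe set, X06564_at, averaged 151.5 ± 46.51 units in EDL at 30 months and 176.9 ± 75.03 at 6 months, a log2 difference of -0.15 with a 95% interval of -0.91 to 0.62. The older array was higher in 6 of 16 pairs, against 16 of 16 for rc_AI137246_s_at. In EOM X06564_at averaged 119.8 ± 37 units at 30 months and 185.4 ± 61.43 at 6 months (log2 -0.62, SE 0.37, limma adjusted p = 0.9996; exact permutation p = 0.171). The older array was lower in 4 of the 4 pairs that share a replicate number, and likewise at 30 against 18 months. For each the exact paired permutation p was 0.125, the smallest that 4 pairs allow. With the replicate block neither passed (limma adjusted p = 0.9994 and 0.9999). X06564_at exceeded the filter on 23 of 24 arrays and rc_AI137246_s_at on 18. In EDL at 6 months rc_AI137246_s_at lay below the filter on replicates 1, 2 and 4 (51.9, 46.7 and 59.8 units against 55.4, 58.4 and 69). It also lay below on replicates 1 and 2 of EDL at 18 months. Its fold in EDL is therefore taken from a 6-month level mostly under that cutoff. The log2 values of the 2 probe sets had r = 0.23 over 24 arrays, 0.195 over the EDL arrays and 0.512 over the EOM arrays. The EDL difference of Ncam1 therefore rests on 1 of its 2 probe sets.

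**Figure D3:**
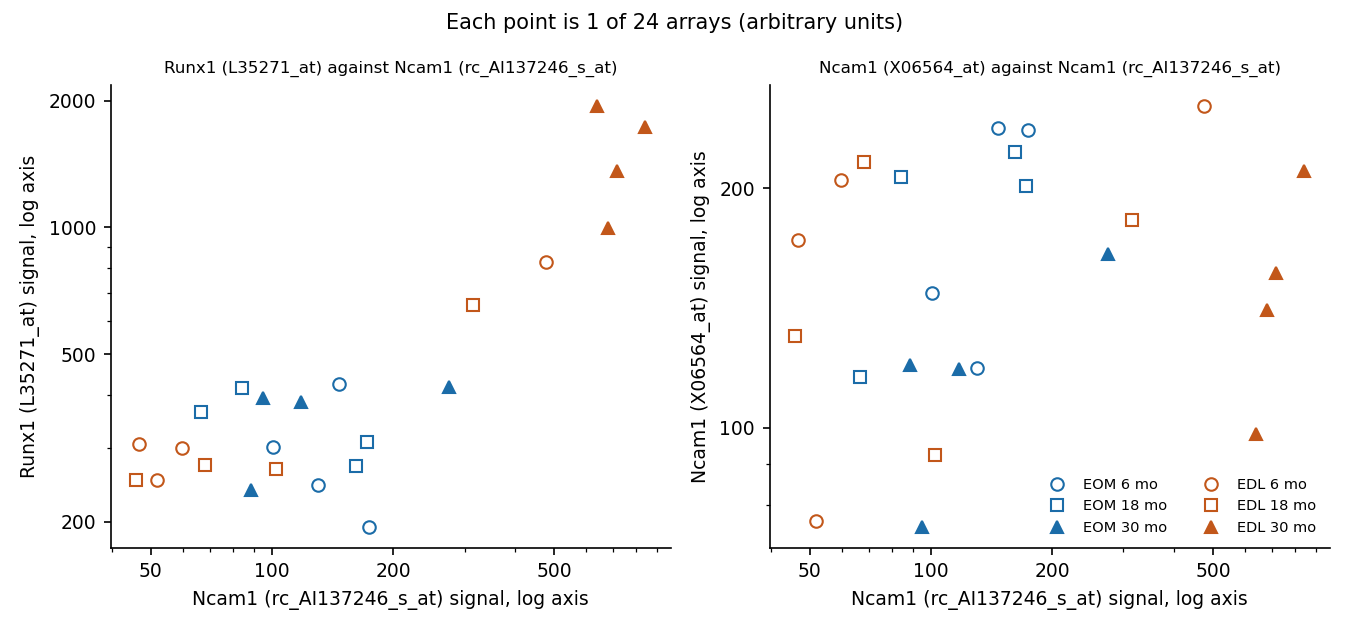
Runx1 (left) and the second Ncam1 probe set (right) against Ncam1 probe set rc_AI137246_s_at, each point 1 of 24 arrays, in arbitrary units on log axes, with colour for muscle and shape for age in months (mo). Runx1 and rc_AI137246_s_at were high together on the 4 EDL arrays at 30 months and next on replicate 3 of EDL at 6 and 18 months, while X06564_at did not follow rc_AI137246_s_at.

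Runx1 and Ncam1 rc_AI137246_s_at had r = 0.957 over the 12 EDL arrays, 0.85 over all 24 and -0.095 over the 12 EOM arrays. With each group's mean removed, r was 0.66. Replicate 3 of EDL at 6 months, high in both, also read highest of its group in Chrna1 (1032.8 units against 265.2 to 344.7 on the other 3), in Myog (953.6 against 71.7 to 566.7) and in the summed macrophage and blood cell markers (5270 against 1530 to 1992). Its median signal over all probe sets was 135.6 units, against 94.1 to 116.2 on the other 3. Replicate 3 of EDL at 18 months had a marker sum of 1570, inside the 1025 to 1879 of its group. It too read highest of its group in Chrna1 (480.8 units against 318.5 to 463.1) and in Myog (583.7 against 78.3 to 555.3). Its median signal was 132.1 units, against 89.7 to 121.2 on the other 3. Replicate 3 had the highest median of its group in the remaining groups as well. It was 129.4 units in EDL at 30 months, and 136.8, 133.4 and 128.2 in EOM at 6, 18 and 30 months. The part of these measures in the Runx1 and Ncam1 readings was not tested.

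Prkar1a (Entrez 25725, GRCr8 chr10:95120537-95139028) encodes the type I alpha regulatory subunit, which holds the catalytic subunits of protein kinase A inactive until cyclic AMP binds. Its 1 probe set, U75932_at, read 2537.3, 3661, 2964.5 and 2819.1 units in EOM at 6 months, 3414.6, 3273.3, 3205.1 and 3876.6 at 18 months, and 3461.5, 2494.4, 2649.5 and 3445.2 at 30 months. In EDL it read 1001.8, 1054.8, 1452.6 and 1458.2 at 6 months, 1275.1, 1192.6, 1623.4 and 1244.8 at 18 months, and 1447.6, 2068.2, 1739 and 1897.1 at 30 months. Every EOM array was above every EDL array, whatever the age. The share of all probe sets that separate in this way was not counted. By limma 42.3% were called between the muscles as the mean over ages.

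Prkar1a was 2.20-fold higher in EOM than in EDL as the mean over ages (log2 1.13, SE 0.10). By age the log2 difference was 1.28 at 6, 1.37 at 18 and 0.75 at 30 months (SE 0.17 each). In EDL the level was 1788 ± 263.7 units at 30 months and 1242 ± 247.5 at 6 months (SD, n = 4 each), 1.45-fold apart (log2 0.54, SE 0.17), with 14 of 16 array pairs higher at 30 months. Centring each array on its median lowered the median EDL difference over all probe sets by 0.142 and gave 0.39 for Prkar1a. In EOM the means were 2995 ± 477.8, 3442 ± 302.3 and 3013 ± 512.8 units at 6, 18 and 30 months. The log2 difference between 30 and 6 months was 0.01, with a 95% interval of -0.34 to 0.35 (limma adjusted p = 0.9996).

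**Figure D4:**
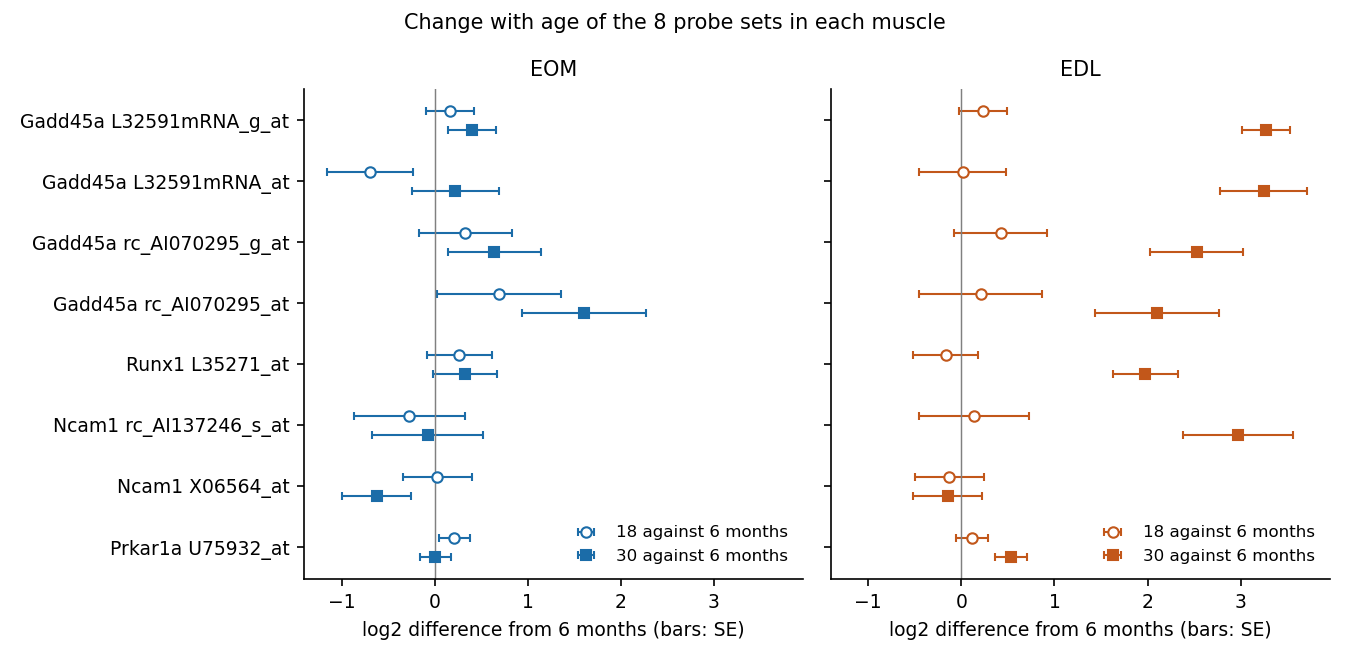
Log2 difference from 6 months of the 8 probe sets at 18 months (open) and 30 months (filled), in EOM (left) and EDL (right), with bars of 1 standard error (SE). In EDL at 30 months 6 probe sets lie between 1.98 and 3.27, Prkar1a at 0.54 and X06564_at at -0.15, while the largest EOM value at 30 months is 1.60.

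Set side by side, 5 of the 8 probe sets had all 4 EDL arrays at 30 months above all 4 at 6 months: 3 of Gadd45a, that of Runx1 and 1 of Ncam1. Over all tested probe sets 2.82% had that pattern in this direction. Since the genes were taken to have been chosen on this contrast, nothing is read from the count. By limma 1.86% of all probe sets were called in that comparison (107, and 172 with the replicate number as a block). At 18 against 6 months in EDL, where 0.279% of all probe sets were called, the 8 log2 differences lay between -0.17 and 0.42. In EOM, 0 of the 8 probe sets passed at 18 against 6, 30 against 6 or 30 against 18 months by limma, and 1 of these 24 tests had an unadjusted p under 0.05. Over all probe sets 0.174%, 0.0348% and 0.0174% were called in these comparisons (10, 2 and 1 probe sets). With the block the first and last of these counts were 33 and 3, and still none of the 8 was called, with an unadjusted p under 0.05 in 3 of the 24 tests. For any effect of age in EOM, 0 of 8 passed and 0 had an unadjusted p under 0.05, against 0.105% of all probe sets (6, and 24 with the block).

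The genes that tracked each brightest probe set most closely over the 24 arrays were found by Pearson correlation of log2 values, as a description in which the 6 groups are shared by all genes. Of a gene's probe sets the most correlated was taken, which in 7 of 20 cases was not its brightest. For Gadd45a these were Chrna1 and Chrnd, which encode acetylcholine receptor subunits (r = 0.966 and 0.935), Klk1 by M19647_f_at (0.937, and 0.895 by its brightest, M19647_i_at), Mybph, a myosin-binding protein (0.91), and Klk1c3 (0.889). Klk1 and Klk1c3 belong to a family of near-identical genes, so which of them was measured is uncertain. For Runx1 they were Ankrd1 (0.866), Ncam1 (0.85), Myc (0.839), Dyrk1a (0.828) and Emb, which ranked between these last 2. For Ncam1 they were Cdkn1a (0.862), Runx1 (0.85), Myog (0.785), Myc (0.775) and Litaf (0.771). The Myc probe set lay at the floor on 12 of 24 arrays, and the brightest Myc probe set had 0.618 with Runx1 and 0.53 with Ncam1. By its brightest probe set Litaf had 0.643 with Ncam1. For Prkar1a they were Pdia3 (0.937), Csdc2 (0.936), Sdcbp (0.933), Myh3 (0.93) and Ccnd3 (0.929, and 0.799 by its brightest).

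Chrna1, like Gadd45a, was higher in EOM than in EDL at 6 and 18 months and highest in EDL at 30 months, with means of 1622, 1720 and 1771 units in EOM at 6, 18 and 30 months, and 493.6, 415.7 and 3932 in EDL. Ankrd1, a stress-responsive protein of the sarcomere, differed from Runx1 between the muscles, with 161.3, 174.7 and 176.2 units in EOM at the 3 ages and 842.7, 565.8 and 5698 in EDL. Myog, which encodes myogenin, averaged 347.2, 317.2 and 365.7 units in EOM and 421.6, 383.1 and 2348 in EDL.

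In the pathways around the 4 genes, 11 of 63 tested genes rose in EDL at 30 against 6 months and 0 fell, when 1.4% of all named genes rose and 0.292% fell. The lists were chosen with earlier results of these data known, so the counts are no independent evidence. Of 14 neuromuscular junction genes 3 rose, namely Chrna1 (log2 3.15, SE 0.30, limma adjusted p = 2.19e-07), Chrnd (2.20, SE 0.34, adjusted p = 0.000265) and Chrnb1 (1.06, SE 0.15, adjusted p = 9.57e-05). With the replicate block Chrng, the fetal receptor subunit, and Chrne, the adult one, also passed (log2 0.79 and 0.72, adjusted p = 0.0254 and 0.0426, against 0.168 and 0.186 without it). That made 13 of 63 genes in all. The block also raised the calls over all probe sets, so the 1.4% above, from the fit without it, is no background for the 13. The median of the neuromuscular junction list was 0.07 and that of all named genes 0.02.

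Of 11 genes of atrophy and denervation signalling 6 rose, with a list median of 1.03. They were Myog (log2 3.21, SE 0.63, limma adjusted p = 0.00436), Ankrd1 (3.10, SE 0.40), Igf2, a growth factor (2.15, SE 0.26), Fst, the myostatin-binding follistatin (2.09, SE 0.45), Ampd3, an AMP deaminase (1.98, SE 0.50), and Myod1, a myogenic factor (1.03, SE 0.24). Trim63, a ubiquitin ligase of atrophy, did not pass (0.60, adjusted p = 0.266). The call of Ampd3 (adjusted p = 0.0372) was lost in 6 of the fits that left out an array, namely 30-month replicates 1, 2 and 3 and 6-month replicates 1, 2 and 4 (adjusted p between 0.0506 and 0.138). That of Myod1 (adjusted p = 0.0207) was lost in 4 such fits, those without 30-month replicates 1 and 2 and 6-month replicates 2 and 3 (between 0.0720 and 0.0989).

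Gadd45b and Gadd45g, relatives of Gadd45a, had no probe set annotated to them alone. Of 11 genes of stress-induced growth arrest 2 rose, with a list median of 0.22. They were Cdkn1a, the cyclin-dependent kinase inhibitor p21 (log2 2.68, SE 0.64, limma adjusted p = 0.0219), and Mdm2, the ligase that turns over p53 (0.76, SE 0.19, adjusted p = 0.0378). Cdkn1a read 807.9, 655.3, 830.2 and 779.6 units in EDL at 30 months and 50.8, 73, 295.6 and 185.6 at 6 months. Its call was lost in 5 such fits, those without 30-month replicates 1, 3 and 4 and 6-month replicates 1 and 2 (adjusted p between 0.0525 and 0.105). The call of Mdm2 was lost in 5, those without 30-month replicates 1, 2 and 3 and 6-month replicates 2 and 3 (between 0.0712 and 0.171).

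None of the 2 Runx partners, 9 adhesion and polysialic acid genes and 16 protein kinase A genes tested passed in EDL at 30 against 6 months. L1cam, a relative of Ncam1, stood at log2 0.90 (SE 0.57, limma adjusted p = 0.67), and St8sia2 and St8sia4, which add polysialic acid to Ncam1, did not pass the filter. Among protein kinase A genes, the catalytic subunit Prkaca stood at 0.20 (adjusted p = 0.793) and the regulatory subunits Prkar1b and Prkar2a at -0.35 and -0.19 (adjusted p = 0.879 and 0.949). The medians of the 3 lists were -0.01, 0.00 and -0.17.

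In EOM 0 of the 63 pathway genes passed in any of the 3 age comparisons by limma, in which 0.205%, 0.0292% and 0.0292% of all named genes did, and 2, 0 and 0 had an unadjusted p under 0.05 at 18 against 6, 30 against 6 and 30 against 18 months. Between EOM and EDL as the mean over ages, 42.3% of all probe sets were called. When 23.4% of named genes were higher in EOM and 20% lower, 7 of 16 protein kinase A genes were higher and 4 lower. Prkar1b and Prkaca were among the higher, as Prkar1a was (log2 0.82 and 0.59, limma adjusted p = 0.00311 and 1.16e-05). Pkia, a protein inhibitor of the kinase, was lower (-0.92, adjusted p = 6.53e-08). Of 14 neuromuscular junction genes 9 were higher in EOM and 0 lower, and of 9 adhesion genes 6 were higher and 0 lower. Atrophy and denervation signalling went both ways, with 3 of 11 genes higher and 5 lower. Growth arrest genes had 1 of 11 higher and 5 lower, and the 2 Runx partners had 1 higher and 1 lower.

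Markers of other cells were measured beside these differences in EDL. None of 7 Schwann cell and nerve markers or 6 macrophage and blood cell markers passed at 30 against 6 months. The summed nerve markers lay between 2127 and 3188 units at 30 months and between 2358 and 3230 at 6 months, most of it from Ngfr (means of 1262 at 30 and 1248 at 6 months) and Pmp22 (989.3 at 30 and 1272 at 6 months). Of the dimmer ones, S100b averaged 147 units at 30 months and 45.17 at 6 months (log2 1.37, limma unadjusted p = 0.01605, adjusted p = 0.279), and Mbp 105.8 at 30 months and 50.45 at 6 months (1.20, unadjusted p = 0.02907, adjusted p = 0.371). Pmp22 stood at -0.41 (unadjusted p = 0.03491, adjusted p = 0.407). Between EOM and EDL as the mean over ages Ngfr went against most of its list. It was lower in EOM (log2 -0.48), while 5 of the 7 nerve markers were called higher there. The summed macrophage markers, 7 on the array, between 1635 and 2456 at 30 months and between 1530 and 5270 at 6 months. Of 4 satellite cell and myoblast markers on the array 2 rose, Myod1 and Myog. Both are also in the list of atrophy and denervation signalling, so their rise is no measure of these cells alone. The sum of the 4 lay between 21730 and 31310 units at 30 months and between 19380 and 27240 at 6 months. Most of that sum came from Des (means of 17620 at 30 and 18060 at 6 months, log2 -0.03), so it mainly follows Des. Of 4 fibroblast markers Col1a1 and Col3a1 fell by 1.60 and 1.85 on the log2 scale (limma adjusted p = 0.0233 and 0.0043). The call of Col1a1 was lost in 4 of the fits without 1 array, those of 30-month replicates 1 and 2 and 6-month replicates 2 and 4 (adjusted p between 0.0648 and 0.141). Klk1, by its brightest probe set, was the 1 of 5 orbital gland markers that passed (log2 4.92, SE 0.64), with means of 3509 units at 30 months and 162.4 at 6 months. It made up most of the sum of the 5 at 30 months, which lay between 2476 and 6978 units, against 238.2 to 712.5 at 6 months. Smr3b averaged 69.5 units at 30 months and 93.75 at 6 months, Aqp5 155.4 at 30 and 111.3 at 6, Krt19 37.5 at 30 and 12.7 at 6, and Spt1 28.9 at 30 and 21.1 at 6 months (limma adjusted p between 0.612 and 0.985). The part of these markers in the Gadd45a, Runx1 and Ncam1 differences was not tested. The muscle labels were checked by Myh13, a myosin of eye muscles, which had means of 13490, 15630 and 15790 units at 6, 18 and 30 months in EOM, against 87.45, 99.02 and 98.3 in EDL.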

How the data were processed

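The deposited table held linear intensity values, 1 per probe set and array, that the authors computed with MAS5, per the submitters' processing notes, in Microarray Suite 5.0, per the series' design text. The labels name a pair of dyes and the design text a biotin stain. With 1 value per array, the arrays were treated as 1-colour. With the top and bottom 2% of signals set aside, every array averaged 499.9 units, so no further scaling was done. Median signals were 89.7 to 136.8 units. Precision is limited by how many arrays there are.

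Of 8799 probe sets 59 controls were removed. Of the other 8740, 7006 had 1 symbol in the platform annotation, 308 several and 1426 none. Of the 7006, 6985 matched the RefSeq gene table of GRCr8 by Entrez identifier, and 0 symbols needed updating. Intensities below the array's 25th percentile (21.4 to 34.5 units) were raised to it before taking log2. Testing required that, in 1 or more groups, 3 of the 4 arrays or all 4 exceeded that array's 40th percentile, which was 53.8 to 83.8 units.

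All 24 arrays entered 1 limma fit (version 3.58.1, R 4.3.3; lmFit, then eBayes with trend) with a mean for each of the 6 groups. Two-sided p-values had Benjamini-Hochberg adjustment across the 5741 probe sets, with calls at 0.05. They measure the spread between pools. The code was tested on simulated data. Where a gene of a list had several probe sets, the one with the highest mean signal stood for it. For likeness the most correlated one did. Named genes were the members, the 5 genes of highest correlation with each, and list genes called in EDL at 30 against 6 months or in EOM, beside list genes named for their role. The members and lists were chosen with earlier results of these data known. Alternatives were 2 scalings, 2 floors, 2 filters, fits of 1 muscle, array weights, a replicate block, each array left out (for the muscle difference at each age this was chosen after seeing the data), replicates 1 and 2 alone and 3 and 4 alone, exact permutation, and a rule that all 16 array pairs differ 1 way with a mean fold over 2.

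Replicate numbers in the labels are shared by the groups. Deviations from group means correlated above 0.1 for every same-numbered pair of EDL at 30 and 6 months and of all EOM ages, and the numbers were taken to pair these arrays. Not every such pair exceeded 0.1 for EDL at 18 and 6 months, where replicate 1 had 0.0961 and replicates 2, 3 and 4 had 0.186, 0.354 and 0.455. Over all pairs of groups, between muscles as well as within, 53 of 60 same-numbered pairs exceeded 0.1.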

Additional observations from a re-analysis of the deposited data

Results flagged for a closer look

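In 6 of 48 sets of 4 arrays (8 probe sets in 6 groups) 1 array lay far from the other 3, its gap to the nearest being 0.836 to 0.919 of the range on the log2 scale, above the 95% critical value of Dixon's test; chance alone gives about 1 in 20. Runx1 read 825.4 units in replicate 3 of EDL at 6 months (251.8 to 306.1 on the others) and 652.7 in replicate 3 of EDL at 18 months (251.6 to 272.5). Ncam1 rc_AI137246_s_at read 476.5 units in that replicate 3 at 6 months (46.7 to 59.8). Runx1 was low, at 238.5 units, in replicate 2 of EOM at 30 months (384.4 to 418). Gadd45a rc_AI070295_at was low, at 115.9 units, in replicate 3 of EDL at 30 months (361.5 to 399.4). Ncam1 X06564_at was low, at 115.7 units, in replicate 4 of EOM at 18 months (201.6 to 222).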

How the results depend on the processing

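Under 35 alternatives none of the 24 EOM tests of the 8 probe sets became a call, with or without the replicate block, and the block changed no other call of theirs. In EDL at 30 against 6 months the log2 difference ranged over the alternatives from 2.63 to 3.92 for Gadd45a L32591mRNA_g_at, 1.41 to 2.55 for Runx1, 2.17 to 3.78 for Ncam1 rc_AI137246_s_at and 0.32 to 0.75 for Prkar1a. For these 4 the lowest came from replicates 3 and 4 alone and the highest from replicates 1 and 2 alone. That of Ncam1 X06564_at ranged from -0.51 to 0.11.

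Counts of calls over all probe sets moved more; the cause was not tested. At 18 against 6 months in EOM (10) they were 18 with quantile normalisation, 25 with median centring, 2 with the lower floor, 5 with EOM arrays alone, 44 with array weights, 33 with the replicate block, 0 within replicates 1 and 2, 0 within replicates 3 and 4, 64 by the rule of 16 pairs, and 1 to 20 without 1 array. At 30 against 6 months in EOM (2) they were 1 with quantile normalisation, median centring, 16 units added in place of the floor, the stricter filter or replicates 3 and 4, 0 with the lower floor or replicates 1 and 2, 4 with weights, 22 by the rule, and 0 to 3 without 1 array. At 30 against 18 months in EOM (1) they were 2 with median centring, 3 with 16 units added, weights or the block, 0 within replicates 1 and 2 and 5 within 3 and 4, 11 by the rule, and 1 to 12 without 1 array. For any age effect in EOM (6) they were 16 with median centring, 1 with the lower floor, 2 with no filter, 29 with weights, 24 with the block, 0 within replicates 1 and 2 and 1 within 3 and 4, and 1 to 15 without 1 array. At 30 against 6 months in EDL (107) they were 55 with EDL arrays alone, 172 with the block, 180 within replicates 1 and 2 and 5 within 3 and 4, and 65 (without replicate 1 at 30 months) to 159 without 1 array. At 18 against 6 months in EDL (16), where the numbers were not taken to pair, they were 1 with EDL arrays alone, 4 with weights, 35 with the block, 47 within replicates 1 and 2 and 0 within 3 and 4, 49 by the rule, and 3 to 80 without 1 array. Between EOM and EDL (2426) they were 2301 to 2412 without 1 array.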
